A study of Homo sapiens with 12 samples.

Results

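The 9 genes CGAS, STING1, IRF1, IFIT1, IFIT2, IFIT3, ISG15, MX1 and OAS1, which sense DNA in the cytosol or are made in response to interferon, were followed in U2OS cells given repair-directed compounds. They were chosen by name, matched to the symbols of the count table, and are 9 of its 58735 genes. U2OS is a human osteosarcoma line. The groups, of 3 libraries each, were cells given both TH10785 and PNKP1i at 10 µM each, cells given 10 µM TH10785, cells given 10 µM PNKP1i, and cells given DMSO, all for 24 h. TH10785 is an activator of OGG1, the glycosylase that excises oxidised guanine from DNA, and PNKP1i is, by its name, an inhibitor of the DNA end-processing enzyme polynucleotide kinase phosphatase whose structure the labels do not give. RNA sequencing gave 16225339 to 21546369 counts per library. The comparisons ask whether either compound, or the pair, moved genes of an interferon response.

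DNA in the cytosol is bound by cGAS, which makes the cyclic dinucleotide that switches on STING at the endoplasmic reticulum. STING recruits the kinase TBK1, which activates IRF3, and IRF3 starts transcription of interferon beta and of some interferon-stimulated genes directly. Secreted interferon then signals through JAK kinases to transcription factors that bind a promoter element called the ISRE and raise a large set of antiviral genes, among them the IFIT, OAS and MX families and ISG15.

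The promoters of IFIT1, IFIT3, ISG15, MX1 and IRF1 are shown here to compare genes that hold the letters of the ISRE with 1 that does not. Promoter sequences, from 250 bases before to 50 after the start of transcription, are those of RefSeq (GRCh38.p14) and were available for 6 of the 9 genes; CGAS, STING1 and IFIT2 are named only. Both strands were searched for the ISRE core, which is GAAA followed after any 2 bases by GAAA, for TTCNNNGAA, the GAS element of interferon gamma signalling, and for the NF-kB motif. The capitals mark ISRE letters in the first 4 sequences, which come from chr10:89392373-89392672 (plus strand), chr10:89327747-89328046 (plus strand), chr1:1013247-1013546 (plus strand) and chr21:41420308-41420607 (plus strand). In the IRF1 promoter, chr5:132490724-132491023 (minus strand), they mark the GAS letters and, further on, the NF-kB motif.
IFIT1: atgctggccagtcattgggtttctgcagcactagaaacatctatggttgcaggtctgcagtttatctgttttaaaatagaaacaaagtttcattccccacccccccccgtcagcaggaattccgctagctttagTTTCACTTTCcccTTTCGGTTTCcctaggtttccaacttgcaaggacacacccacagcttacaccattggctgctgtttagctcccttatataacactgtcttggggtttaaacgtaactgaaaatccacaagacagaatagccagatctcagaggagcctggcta
IFIT3: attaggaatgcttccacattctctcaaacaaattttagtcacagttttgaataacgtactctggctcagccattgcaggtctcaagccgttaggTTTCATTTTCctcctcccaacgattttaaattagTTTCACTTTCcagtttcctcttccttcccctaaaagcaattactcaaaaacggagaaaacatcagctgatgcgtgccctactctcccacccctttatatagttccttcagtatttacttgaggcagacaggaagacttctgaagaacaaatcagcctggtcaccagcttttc
ISG15: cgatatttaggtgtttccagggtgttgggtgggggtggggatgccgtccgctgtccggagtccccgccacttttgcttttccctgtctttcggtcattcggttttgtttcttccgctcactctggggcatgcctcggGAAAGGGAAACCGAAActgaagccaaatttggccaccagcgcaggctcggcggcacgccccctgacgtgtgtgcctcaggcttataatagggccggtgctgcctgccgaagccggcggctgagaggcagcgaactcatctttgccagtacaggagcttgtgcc
MX1: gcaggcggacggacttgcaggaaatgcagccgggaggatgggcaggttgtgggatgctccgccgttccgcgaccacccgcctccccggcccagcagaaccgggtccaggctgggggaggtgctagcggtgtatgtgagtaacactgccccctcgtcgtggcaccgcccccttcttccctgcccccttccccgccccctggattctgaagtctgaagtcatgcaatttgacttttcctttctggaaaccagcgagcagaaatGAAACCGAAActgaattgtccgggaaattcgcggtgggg
IRF1: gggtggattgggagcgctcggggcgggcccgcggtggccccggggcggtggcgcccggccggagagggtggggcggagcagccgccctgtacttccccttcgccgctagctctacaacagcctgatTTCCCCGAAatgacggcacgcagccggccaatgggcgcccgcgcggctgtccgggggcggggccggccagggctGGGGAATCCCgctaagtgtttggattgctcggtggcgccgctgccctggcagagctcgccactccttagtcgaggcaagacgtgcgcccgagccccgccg

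ISRE letters were found in a promoter of 4 of the 6 genes, IFIT1, IFIT3, ISG15 and MX1, against 4.38% of the 27303 genes of the RefSeq table. Counted by promoter, 3.57% of the 35114 in that table held them. IFIT1 held TTTCACTTTC at -116 and TTTCGGTTTC at -103, both on the minus strand. IFIT3 held TTTCATTTTC at -156 and TTTCACTTTC at -122 of the promoter shown, and a further 2 matches in a second promoter. In ISG15 the matches GAAAGGGAAA at -113 and GAAACCGAAA at -107 overlap by their shared letters. In MX1 the match GAAACCGAAA begins at 12, after the start; in another of its 3 promoters GAS letters overlap an ISRE match. OAS1 held no match to the ISRE pattern searched in this window but GAS letters, TTCAGAGAA, at -168. Its window does hold GAAACGAAA, where only 1 base parts the GAAA repeats, a spacing that the search did not cover. IRF1 held GAS letters, TTCCCCGAA, at -124 and the NF-kB motif, GGGGAATCCC, at -50. GAS letters stood in 7.66% of all promoters and the NF-kB motif in 5.91%. Such matches describe the letters only and are not evidence of binding.

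Some libraries stood apart from their partners. In replicate 3 of TH10785, tested genes under 40% GC had a median 0.63 lower on the log2 scale than the DMSO mean, and genes over 60% GC a median 0.22 higher. In the 3 combination libraries the trend ran the other way, with medians of 0.46 to 0.80 for genes under 40% GC and of -0.37 to -0.34 for genes over 60% GC. Of 12891 genes at 2 CPM (the level used throughout, a gene's count over its library's TMM-scaled total) or more in both partners, 19 lay under 0.25 times both in combination replicate 1, IFIT1 among them. Values without these libraries, or with offsets for GC content and length, stand beside some of the results below. None are given for the changes of SOCS1, SOCS3, SP100, PARP14, CD274, GBP3 and WARS1 with both compounds. In combination replicates 1, 2 and 3, CD274 was at 12.7, 5.48 and 5.11 CPM, WARS1 at 320.8, 210.7 and 210.3 CPM and SOCS1 at 1.98, 5.86 and 5.75 CPM. As a check of the label, 9 of 10 markers of mesenchymal and osteosarcoma lines averaged 1 CPM or more in every group, all but COL1A2. Of 6 epithelial and endothelial markers, 5 did with both compounds and with TH10785, and 3 with PNKP1i and with DMSO. None of 11 leukocyte markers did in any group, their summed level was 0.726 to 1.18 CPM with both compounds, 0.499 to 1.09 in TH10785 cells, 0.225 to 0.691 in PNKP1i cells and 0.598 to 1.28 in DMSO cells, and CD3E and LYZ were at 0 throughout. The summed mesenchymal markers were at 2670 to 3500 CPM with both compounds and at 4870 to 5890 CPM with DMSO. The 6 epithelial and endothelial markers summed to 20.6 to 29.7 CPM with both compounds and 46.5 to 53.7 CPM with DMSO. The part of these markers in the results was not tested.

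The 9 genes differed widely in level. Per kilobase of annotated exons, ISG15 stood highest in DMSO cells at 23.2 ± 4.92 CPM per kb (SD, n = 3), followed by CGAS at 2.52 ± 0.181 and IRF1 at 1.49 ± 0.208. STING1 at 0.730 to 1.20 CPM per kb and IFIT1 at 0.702 to 1.39 CPM per kb did not differ beyond their spread, nor did MX1 at 0.149 ± 0.0159, OAS1 at 0.121 ± 0.043 and IFIT3 at 0.0886 ± 0.0611. IFIT2 was lowest, at 0.00435 CPM per kb, which is 1 count over the 3 DMSO libraries. With both compounds ISG15, at 13.5 ± 4.08 CPM per kb, and CGAS, at 2.83 ± 0.198, were again highest, and the range of STING1, 1.38 to 1.61, lay within that of IRF1, 1.32 to 1.68. On this measure IFIT3, at 0.299 ± 0.111 CPM per kb, then stood above MX1 at 0.0989 ± 0.0172 and OAS1 at 0.0672 ± 0.0118, as a description only. The lengths joined all annotated exons, 8616 bases for MX1, 4947 for OAS1, 7799 for IRF1 and 2640 for IFIT3. Their longest transcripts have 3470, 2416, 5153 and 2496 bases, so the order of genes with close levels rests on the length used. IFIT2 did not pass the filter on low counts, so 8 of the 9 genes entered the test. IFIT3 had 12 counts in all in DMSO cells and passed that filter through its combination libraries. OAS1 passed it through its TH10785 libraries, the group with its highest mean.

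**Figure D1:**
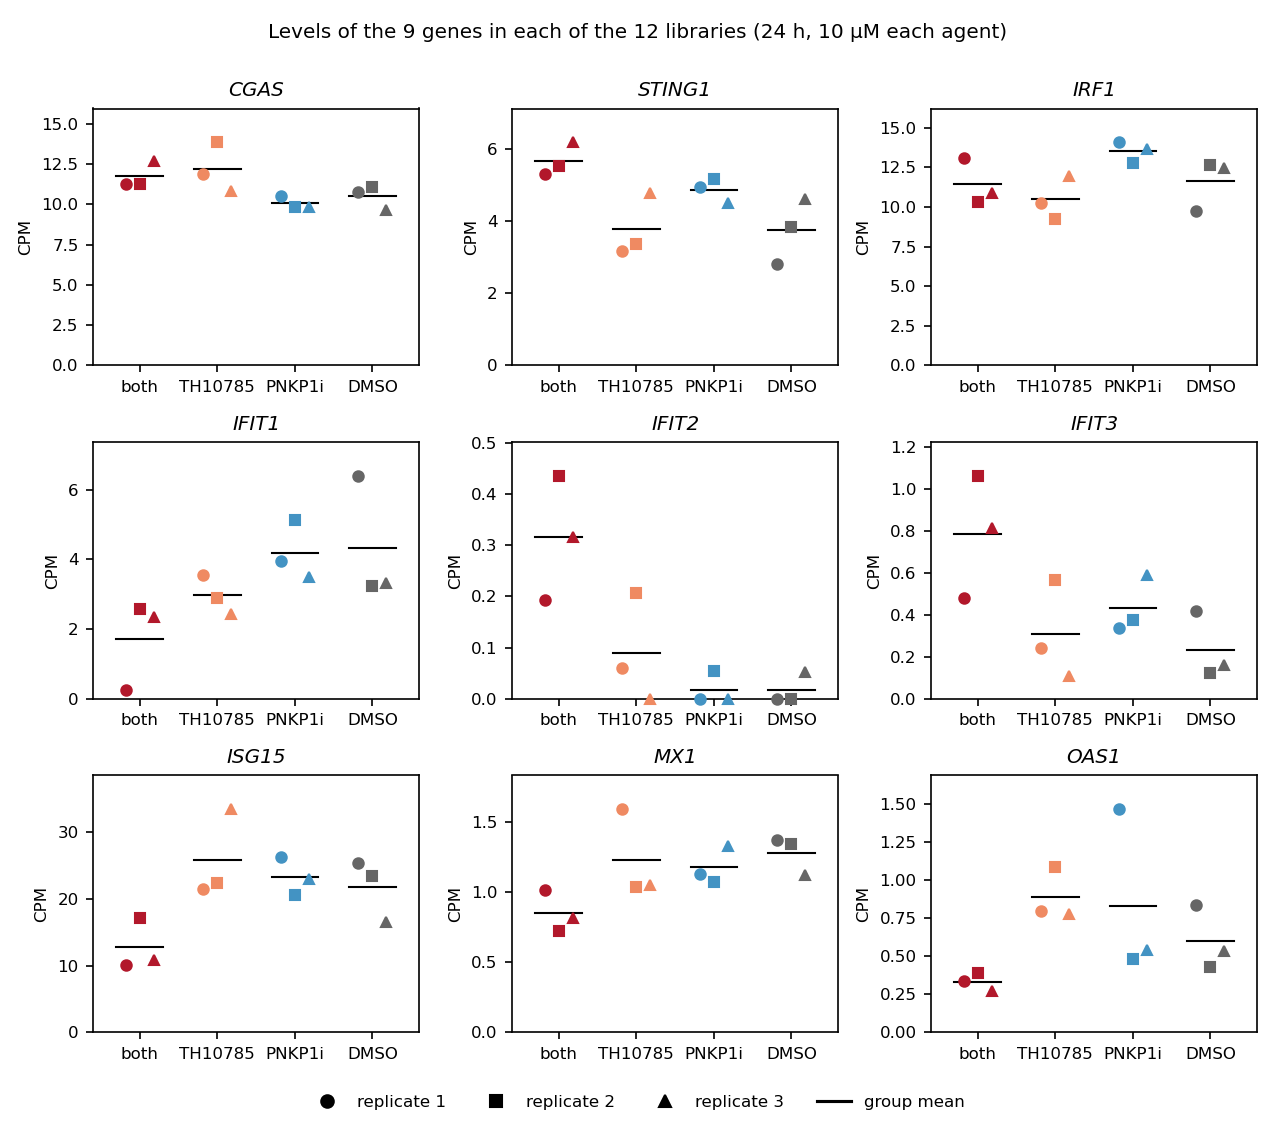
Level in CPM (vertical axes, each from 0) of the 9 genes in the 12 libraries, by group; symbols mark the replicates and lines the group means. The combination libraries lie highest for STING1 and, in the mean, for IFIT2 and IFIT3, and lowest for MX1 and OAS1, while IFIT1 in combination replicate 1 is at 0.242 CPM.

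None of the 8 tested genes passed the test with either compound alone. With TH10785, 0 of the 8 tested genes passed an adjusted p of 0.05 (edgeR's quasi-likelihood test, Benjamini-Hochberg over 17290 genes), where 0.561% of all tested genes did, 0.515% higher and 0.0463% lower. For 0 of the 8 did the 3 TH10785 libraries all lie on one side of the DMSO libraries, as they did for 19.7% of all genes. Their log2 fold changes ran from -0.54 for IFIT1 to 0.57 for OAS1, with a median of 0.11 against -0.02 over all genes, and the adjusted p-values from 0.555 to 0.993. With PNKP1i, 0 of 8 passed, where 0.197% of all genes did, 0.174% higher and 0.0231% lower. There the log2 fold changes ran from -0.11 for MX1 to 0.90 for IFIT3, with a median of 0.16 against -0.02, and the adjusted p-values from 0.526 to 0.976. In neither comparison was an unadjusted p under 0.05 (0 of 8 each), and 0 of the 8 passed under any of the 23 other settings, DESeq2 included.

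The intervals show what these comparisons could not resolve. For the better counted genes they were narrower than for IFIT3: with TH10785 the 95% interval of the log2 fold change was -0.11 to 0.55 for CGAS, -0.51 to 0.21 for IRF1, -0.48 to 0.49 for STING1 and -0.22 to 0.71 for ISG15. For IFIT3, with 17 counts in TH10785 cells and 12 in DMSO cells, the interval ran from -1.01 to 1.86. With PNKP1i the intervals were -0.39 to 0.27 for CGAS, -0.10 to 0.84 for STING1 and -0.36 to 0.56 for ISG15. IRF1, a transcription factor that interferon gamma induces, was at 14.1, 12.8 and 13.7 CPM in PNKP1i libraries, against 9.75, 12.6 and 12.5 CPM in DMSO libraries. All 3 PNKP1i libraries thus lay above the DMSO libraries, as for 11.7% of all genes, and the change of 0.22 (SE 0.17, adjusted p = 0.619) did not pass.

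With both compounds against DMSO, STING1 rose, IFIT1 and ISG15 fell, and CGAS, IRF1, MX1 and OAS1 did not pass. Over all tested genes 41% passed in this comparison, 21.3% higher and 19.7% lower, and nothing particular to these genes is read from their count. IFIT3 is given apart, as a description, because it entered the test through the libraries in which it is high. Bulk RNA does not tell a change in every cell from a change in the share of cells that express a gene.

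**Figure D2:**
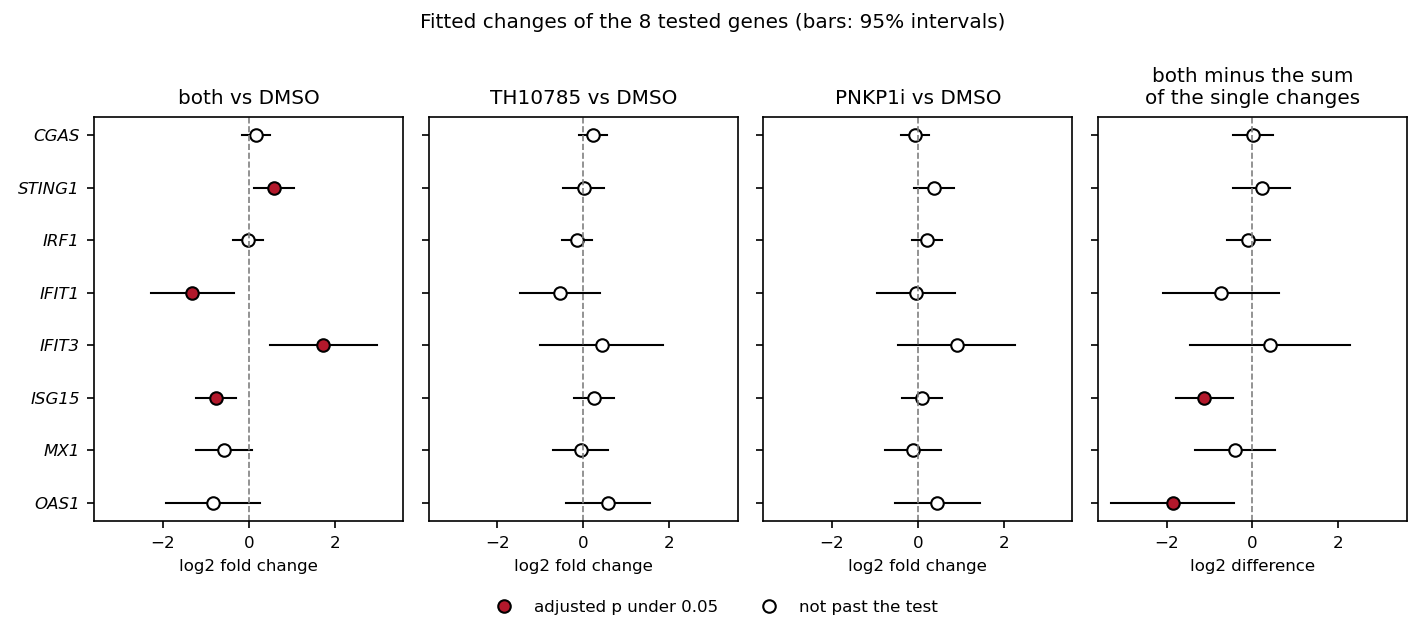
Log2 fold change of the 8 tested genes against DMSO for both compounds, TH10785 and PNKP1i, and in the last panel the change with both minus the sum of the single changes (horizontal axes, log2). Points are fitted values, bars 95% intervals, and filled points had an adjusted p under 0.05: STING1, IFIT1, ISG15 and, as a description only, IFIT3 with both compounds, 0 genes with either alone and, in the last panel, ISG15 and, as a description only, OAS1.

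STING1, the adaptor that cGAS activates (ENSG00000184584, chromosome 5, 139475534 to 139482935, GRCh38), was at 5.32, 5.53 and 6.20 CPM with both compounds, 3.19, 3.36 and 4.77 CPM with TH10785, 4.96, 5.17 and 4.49 CPM with PNKP1i and 2.81, 3.85 and 4.60 CPM with DMSO. The combination libraries lay above all 9 others. Of all genes, 28.4% had combination libraries above those of DMSO, 27.4% above those of TH10785 and 30.3% above those of PNKP1i. The share above all 9 at once was not computed. STING1 rose 1.51-fold against DMSO (log2 0.59, SE 0.22, adjusted p = 0.0402) and 1.504-fold against TH10785 (0.59, SE 0.22, adjusted p = 0.04), and the difference from PNKP1i, 0.22 with an interval of -0.23 to 0.68, did not pass. The call against DMSO is close to the threshold. It ended without DMSO replicate 1 (0.42, adjusted p = 0.171), DMSO replicate 2 (0.61, 0.0903), PNKP1i replicate 3 (0.59, 0.0531), combination replicate 2 (0.62, 0.0575) or combination replicate 3 (0.54, 0.115), and with DESeq2 (0.58, 0.0516), no filter (0.62, 0.062) or only the groups compared (0.56, 0.0571). With offsets for GC content, which is 56.8% in its longest transcript, the rise of STING1 was larger, at 0.91 (adjusted p = 0.00172) against DMSO and 0.62 (adjusted p = 0.0173) against PNKP1i.

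The call of STING1 against TH10785 ended in 9 of 12 fits that left out a library. The adjusted p was 0.136 without TH10785 replicate 1, 0.127 without replicate 2, 0.0539, 0.0599 and 0.124 without combination replicates 1, 2 and 3, 0.0548, 0.0502 and 0.0529 without PNKP1i replicates 1, 2 and 3, and 0.0538 without DMSO replicate 2. CGAS, the DNA sensor itself (ENSG00000164430, chromosome 6, 73413515 to 73452276), was at 11.3, 11.3 and 12.7 CPM with both compounds, 11.9, 13.9 and 10.8 CPM with TH10785, 10.5, 9.85 and 9.83 CPM with PNKP1i and 10.8, 11.1 and 9.63 CPM with DMSO. Its combination libraries lay just above the DMSO libraries, as for 28.4% of all genes. The change of CGAS, 0.17 (SE 0.16, adjusted p = 0.414), did not pass, and it was -0.06 (adjusted p = 0.761) with GC offsets. Against TH10785 the difference of CGAS was -0.05 (adjusted p = 0.807) and against PNKP1i 0.23 (adjusted p = 0.245).

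IRF1 (ENSG00000125347, chromosome 5, 132481609 to 132490798) was at 13.1, 10.3 and 10.9 CPM with both compounds, 10.2, 9.21 and 11.98 CPM with TH10785, and as given above with PNKP1i and DMSO. Its groups overlapped, and the change with both compounds against DMSO was -0.02 (SE 0.17, adjusted p = 0.921; interval -0.38 to 0.33), or 0.22 (adjusted p = 0.23) with GC offsets. The difference of IRF1 was 0.13 (adjusted p = 0.574) from TH10785 and -0.24 (adjusted p = 0.25) from PNKP1i. IRF1 shares 1716 exon bases with C5orf56 on the opposite strand, and without a statement that strand was counted, reads of the pair cannot be told apart. The same holds for 180 exon bases of CGAS, 236 of MX1, 92 of OAS1 and 36 of ISG15 that genes on the opposite strand share.

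The IFIT genes stand side by side on chromosome 10 and encode antiviral proteins that act on RNA; IFIT1 binds RNA whose cap lacks the host's methylation. IFIT1 (ENSG00000185745, 89392546 to 89406486) was at 0.242, 2.57 and 2.35 CPM with both compounds (5, 53 and 52 counts), 3.56, 2.90 and 2.44 CPM with TH10785, 3.95, 5.11 and 3.51 CPM with PNKP1i and 6.40, 3.24 and 3.32 CPM with DMSO. All 3 combination libraries lay below the DMSO libraries, as for 25.2% of all genes, but their replicate 1 lay far below its partners and DMSO replicate 1 far above its own. IFIT1 was 2.49-fold lower against DMSO (log2 -1.32, SE 0.46, adjusted p = 0.0303) and 2.42-fold lower against PNKP1i (-1.27, SE 0.46, adjusted p = 0.0314), and the difference from TH10785, -0.77, did not pass (adjusted p = 0.194).

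The fall of IFIT1 depends on single libraries. Against DMSO it was -0.80 (adjusted p = 0.0632) without combination replicate 1, -0.93 (adjusted p = 0.164) without DMSO replicate 1 and -1.30 (adjusted p = 0.0579) without TH10785 replicate 3. The replicate block (adjusted p = 0.0531) and a fit of only the groups compared (adjusted p = 0.102) also ended the call, while GC offsets kept it (-1.60, adjusted p = 0.0187). Against PNKP1i the call of IFIT1 ended without PNKP1i replicate 1 (adjusted p = 0.058), PNKP1i replicate 2 (0.0969), TH10785 replicate 3 (0.0584) or combination replicate 1 (-0.76, 0.0668), with the replicate block (0.0537) and in a fit of only the groups compared (0.0901).

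IFIT3 (ENSG00000119917, chromosome 10, 89327894 to 89340971), which binds and stabilises IFIT1, had few reads. It had 10, 22 and 18 counts with both compounds, 4, 11 and 2 in TH10785 cells, 6, 7 and 12 in PNKP1i cells and 7, 2 and 3 in DMSO cells. The combination libraries lay above the DMSO libraries and overlapped those of each compound alone. The ratio of its summed counts, 50 with both and 12 with DMSO, scaled for depth, was 3.40 (exact 95% interval 1.79 to 7.02, counting error only), and the fitted log2 fold change was 1.73 (SE 0.59). Its adjusted p of 0.0273 supports no statement here, since the gene passed the filter on low counts through its combination libraries. The differences of IFIT3 from TH10785, 1.31 (adjusted p = 0.0681), and from PNKP1i, 0.83 (adjusted p = 0.206), did not pass. Against DMSO the adjusted p of IFIT3 was over 0.05 without DMSO replicate 2 (1.45, adjusted p = 0.112), DMSO replicate 3 (1.51, 0.101), combination replicate 2 (1.47, 0.0966) or combination replicate 3 (1.72, 0.0631), with GC offsets (1.53, 0.0509), with those and the replicate block (1.49, 0.0799), and with DESeq2 (1.74, 0.0542). Against TH10785 it was under 0.05 without TH10785 replicate 2 (2.12, adjusted p = 0.0236).

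IFIT2 (ENSG00000119922, chromosome 10, 89283694 to 89309276), the neighbour of IFIT3, was close to silent. It had 4, 9 and 7 counts with both compounds, 1, 4 and 0 in TH10785 cells, 0, 1 and 0 in PNKP1i cells and 0, 0 and 1 in DMSO cells. All 3 combination libraries had reads, and 5 of the other 9 had none. The ratio of both compounds to DMSO was 16.3 with an exact 95% interval of 2.61 to 677, resting on 20 counts and 1, and the ratio to TH10785, with 5 counts, was 3.39 (1.23 to 11.5). These intervals cover counting error only, not the spread between libraries. In a fit with no filter on low counts IFIT2 passed against DMSO (log2 3.67, adjusted p = 0.0372) and against PNKP1i (3.73, adjusted p = 0.0289), and not against TH10785 (1.71, adjusted p = 0.331). IFIT2 shares 65 exon bases with LIPA on the opposite strand and 356 with AL353751.1 on its own.

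The neighbours of the IFIT genes were set beside them. IFIT5, the next gene of the cluster, rose with both compounds, at 6.06 ± 0.409 CPM against 3.01 ± 0.0698 CPM with DMSO (SD, n = 3 each; log2 1.01, SE 0.24, adjusted p = 0.0033), and the call was lost with GC offsets (0.44, adjusted p = 0.086). LIPA, a lysosomal lipase whose annotated span covers IFIT1, IFIT2 and IFIT3 on the opposite strand, rose as well (0.47, adjusted p = 0.00991; 0.16, adjusted p = 0.202 with GC offsets). With TH10785 alone LIPA was at 37.5 ± 6.36 CPM, against 24.5 ± 0.812 CPM with DMSO (0.61, adjusted p = 0.0455), a call that ended in 9 of 12 fits without a library, with adjusted p-values from 0.0651 without PNKP1i replicate 1 to 0.234 without DMSO replicate 3; it held without TH10785 replicate 3, combination replicate 1 or combination replicate 2. SLC16A12, PANK1 and KIF20B did not pass in any comparison with DMSO, and IFIT1B and CH25H were listed at 0 in all libraries.

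**Figure D3:**
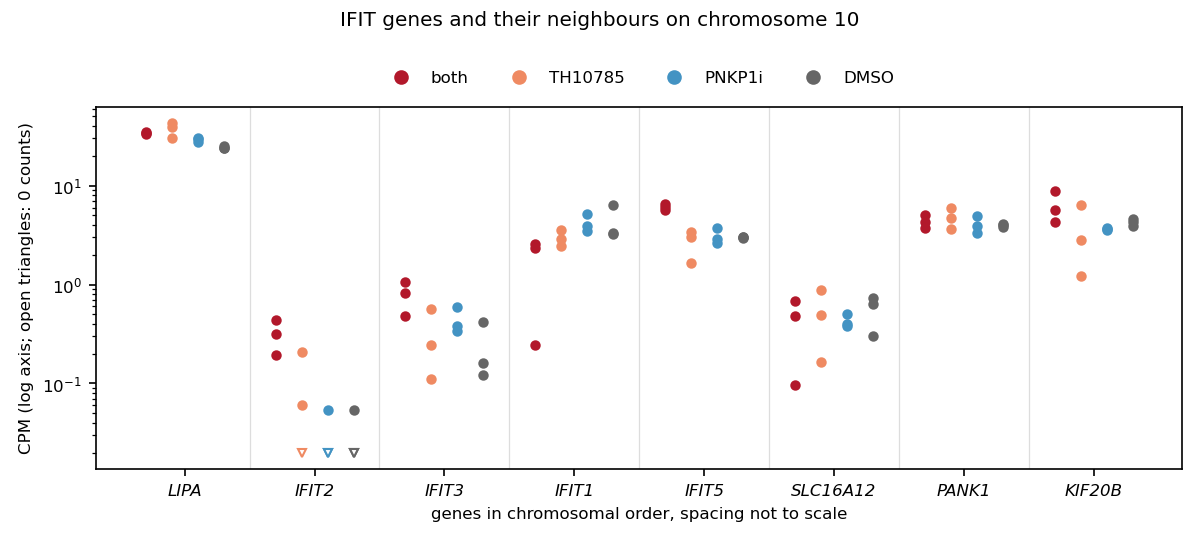
Level in CPM (vertical log axis) of the IFIT genes and their neighbours in their order on chromosome 10; each point is a library, coloured by group, and open triangles mark libraries with 0 counts. IFIT2, IFIT3 and IFIT5 have their highest mean with both compounds and IFIT1 its lowest.

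ISG15, a ubiquitin-like protein that is joined to other proteins after interferon (ENSG00000187608, chromosome 1, 1001138 to 1014540), had the most counts of the 9 genes in each group. It was at 10.2, 17.2 and 10.9 CPM with both compounds, 21.6, 22.4 and 33.5 CPM with TH10785, 26.3, 20.6 and 23.1 CPM with PNKP1i and 25.4, 23.4 and 16.6 CPM with DMSO. The combination libraries lay below all 6 libraries of the single compounds, and their replicate 2 lay just above DMSO replicate 3. Combination libraries below those of TH10785 were seen for 24.9% of all genes, and below those of PNKP1i for 27.9%. ISG15 was 2.03-fold lower against TH10785 (log2 -1.02, SE 0.22, adjusted p = 0.00213), where 42.3% of all genes passed, and 1.83-fold lower against PNKP1i (-0.87, SE 0.22, adjusted p = 0.00456), where 46% did. Both calls held in all 23 other settings.

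Against DMSO, ISG15 was 1.71-fold lower (log2 -0.77, SE 0.22, adjusted p = 0.0111). This call ended without DMSO replicate 1 (-0.65, adjusted p = 0.0534), combination replicate 1 (-0.63, 0.0565) or combination replicate 3 (-0.67, 0.0546), and held in the other 20 settings. The longest ISG15 transcript is 63.4% GC, in the range where the combination libraries ran low for genes as a whole. With GC offsets its fall was -0.46 (adjusted p = 0.0297) against DMSO, -0.55 (adjusted p = 0.0122) against TH10785 and -0.45 (adjusted p = 0.0347) against PNKP1i.

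OAS1, which makes the oligoadenylate that activates RNase L (ENSG00000089127, chromosome 12, 112906777 to 112933222), had 7, 8 and 6 counts with both compounds, 13, 21 and 14 in TH10785 cells, 26, 9 and 11 in PNKP1i cells and 14, 7 and 10 in DMSO cells. In CPM the combination libraries, at 0.339, 0.388 and 0.271, lay below the 9 others. They lay below the DMSO libraries for 25.2% of all genes, below those of TH10785 for 24.9% and below those of PNKP1i for 27.9%. The share below all 9 at once was not computed. OAS1 was 2.65-fold lower against TH10785 (log2 -1.41, SE 0.49, adjusted p = 0.0289) and 2.45-fold lower against PNKP1i (-1.29, SE 0.49, adjusted p = 0.0405), and the difference from DMSO, -0.84 (SE 0.52, adjusted p = 0.205), did not pass. OAS1 passed the filter on low counts through its TH10785 libraries, the group with its highest mean. Its adjusted p-values under 0.05 are therefore a description only. Against TH10785 the call of OAS1 ended without TH10785 replicate 2 (adjusted p = 0.097), combination replicate 1 (0.0679) or combination replicate 3 (0.0944). Against PNKP1i it held in 10 of 21 settings and was -0.62 (adjusted p = 0.348) without PNKP1i replicate 1, the library with 26 counts. Leaving out combination replicate 1 (adjusted p = 0.0852), 2 (0.0599) or 3 (0.12) ended it too.

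MX1, a GTPase that blocks viral replication (ENSG00000157601, chromosome 21, 41420304 to 41459214), was at 1.02, 0.727 and 0.814 CPM with both compounds, 1.59, 1.04 and 1.05 CPM with TH10785, 1.13, 1.08 and 1.33 CPM with PNKP1i and 1.38, 1.34 and 1.12 CPM with DMSO. The combination libraries lay below all others. Of all genes, 25.2% had them below the DMSO libraries, 24.9% below those of TH10785 and 27.9% below those of PNKP1i. The share below all others at once was not computed. The changes of MX1, -0.58 against DMSO (SE 0.31, adjusted p = 0.148), -0.52 against TH10785 (adjusted p = 0.196) and -0.47 against PNKP1i (adjusted p = 0.233), did not pass. Counting the tested genes in these comparisons, 1 rose and 2 fell against TH10785, where 22.7% of all genes rose and 19.7% fell, and 0 rose and 3 fell against PNKP1i, where 24.4% rose and 21.5% fell. OAS1, a description only, is among the genes that fell in each. The comparisons with DMSO, TH10785 and PNKP1i share the combination libraries.

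The response to the pair was also set against the sum of the responses to each compound. For 2 of the 8 genes, ISG15 and OAS1, the difference passed the test, both lower, where 30.6% of all genes did, 16.5% higher and 14.1% lower. ISG15 was 1.12 lower on the log2 scale than the sum of the single changes gives (SE 0.31, adjusted p = 0.0152), and OAS1 1.86 lower (SE 0.68, adjusted p = 0.0464). The value of OAS1 is a description only, since the gene passed the filter on low counts through its TH10785 libraries. The call of ISG15 held without any 1 of the 12 libraries and ended with GC offsets (-0.54, adjusted p = 0.0935) and with those and the replicate block (-0.55, adjusted p = 0.109). That of OAS1 held in 6 of the 20 settings that gave it an adjusted p. It ended without PNKP1i replicate 1 (-1.21, adjusted p = 0.182), PNKP1i's high library, without DMSO replicate 2 (0.0945) or 3 (0.0933), TH10785 replicate 2 (0.0982) or 3 (0.0578) and combination replicate 1 (0.0772), 2 (0.0532) or 3 (0.101), and with GC offsets (-1.70, adjusted p = 0.087). The other 6 genes had values between -0.73 for IFIT1 and 0.41 for IFIT3, none of them past the test.

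The interferons themselves were not detected above single reads. The 20 interferon genes of type I, II and III together had 2 counts with both compounds, 0 in TH10785 cells, 0 in PNKP1i cells and 1 in DMSO cells. A count of 0 over the 3 libraries of a group allows up to 0.0473 CPM per gene with both compounds, 0.0559 in TH10785 cells, 0.053 in PNKP1i cells and 0.0579 in DMSO cells, for counting error only. Of the 6 tested interferon receptor genes, IFNAR1, which binds type I interferon, rose with both compounds to 31.7 ± 2.89 CPM, against 20.9 ± 0.337 CPM with DMSO (log2 0.61, SE 0.18, adjusted p = 0.0136), a call that ended with GC offsets and the replicate block (0.33, adjusted p = 0.0573). IFNGR1 rose by 0.59 (adjusted p = 0.026) and IFNLR1 fell by 0.78 (adjusted p = 0.0175); with GC offsets these 2 values became 0.07 (adjusted p = 0.715) and -0.50 (adjusted p = 0.112). IFNLR1 also lost its call without DMSO replicate 1 (adjusted p = 0.0967) or combination replicate 1 (0.0804), and IFNGR1 without DMSO replicate 1 (0.0518), 2 (0.0871) or 3 (0.0668) or combination replicate 3 (0.14). The adjusted p of IFNAR2, its partner chain, was 0.675.

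Around CGAS and STING1, the DNA sensing list without these 2 genes had 12 tested genes. With both compounds against DMSO 4 rose and 2 fell, at a median log2 fold change of -0.08 against 0.04 over all genes. Of all tested genes, 21.3% rose and 19.7% fell. IFI16, a nuclear DNA sensor, rose to 26.0 ± 8.08 CPM, against 10.1 ± 1.10 CPM with DMSO (1.36, SE 0.27, adjusted p = 0.000911), and TBK1, the kinase downstream of STING, to 11.5 ± 3.08 CPM, against 4.49 ± 0.886 CPM (1.36, SE 0.31, adjusted p = 0.0025). RNASEH2B rose by 0.58 (adjusted p = 0.0104) and RNASEH2A fell by 0.97 (adjusted p = 0.0111); these are subunits of the enzyme that removes ribonucleotides from DNA. Over the settings run, the value of IFI16 ran from 0.82 to 1.54 and that of TBK1 from 0.83 to 1.57, all past the test. RNASEH2A lost its call with no filter (adjusted p = 0.0551) and with GC offsets and the replicate block (-0.83, adjusted p = 0.0536), and 1 of the list fell instead of 2 without DMSO replicate 1 or 2, any PNKP1i replicate, TH10785 replicate 1 or 2, or combination replicate 1 or 3. The rise of RNASEH2B was 0.14 (adjusted p = 0.443) with GC offsets and lost its call without DMSO replicate 2 (adjusted p = 0.0505), and that of DNASE2 (0.44, adjusted p = 0.0151) without DMSO replicate 3 (0.0841). IRF3 was at 57.7 ± 4.60 CPM with both compounds, against 59.9 ± 10.2 CPM with DMSO (-0.05, adjusted p = 0.804). TREX1, the cytosolic DNA exonuclease, was listed at 0 in all 12 libraries; all 1515 of its exon bases are also annotated to ATRIP on the same strand.

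In the RNA sensing list 4 of 12 tested genes rose with both compounds and 2 fell, at a median of 0.17. Of all tested genes, 21.3% rose and 19.7% fell. TRIM25, a ubiquitin ligase that activates RIG-I, rose by 1.09 (SE 0.17, adjusted p = 0.000124), TRAF3 by 0.53 (adjusted p = 0.00105) and IFIH1, the sensor MDA5, by 1.42 (SE 0.37, adjusted p = 0.00621), while ADAR, which edits double-stranded RNA, fell by 0.39 (adjusted p = 0.00621). These 4 calls held in every setting run, with values of -0.43 to -0.22 for ADAR and 0.47 to 0.84 for TRAF3. Of the 2 genes that fell, 1 did without DMSO replicate 1 or 2, PNKP1i replicate 1, TH10785 replicate 2 or any combination replicate. Between the receptors and the antiviral genes, the JAK-STAT list had 19 tested genes without IRF1, of which 2 rose and 6 fell with both compounds. Their median was -0.17, and the shares of all genes are those just given. SOCS1, the feedback inhibitor of JAK kinases, fell to 4.53 ± 2.21 CPM, against 21.5 ± 2.39 CPM with DMSO (-2.24, SE 0.28, adjusted p = 2e-05), and SOCS3 fell by 1.25 (SE 0.18, adjusted p = 7.44e-05). With TH10785 alone SOCS1 was at 11.34, 11.59 and 15.65 CPM, against 18.91, 21.99 and 23.6 CPM with DMSO. That difference passed only with no filter and without combination replicate 1. With both compounds IRF2BP1, a corepressor of IRF2, fell by 0.95 (adjusted p = 7.15e-05), and JAK2 rose by 1.16 (adjusted p = 0.00811; 0.69, adjusted p = 0.063 with GC offsets). The value of IRF2BP1 ran from -1.05 to -0.41 over the settings run, all past the test. With GC offsets 1 gene of the list rose and 4 fell, where 3426 and 2642 of all 17290 genes did. Without DMSO replicate 2 the list counts were also 1 and 4, where 2521 and 2628 of 17806 genes rose and fell. Without TH10785 replicate 3 they were 4 and 6, where 4652 and 3816 of 17804 genes did. STAT2 and IRF9, which act at the ISRE, did not pass, at 0.07 (adjusted p = 0.646) for STAT2 and 0.33 (adjusted p = 0.485) for IRF9.

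Among 30 further type I interferon-stimulated genes that were tested, 8 rose and 7 fell with both compounds, at a median of 0.09 against 0.04 over all genes. SP100, a nuclear body protein, rose to 27.4 ± 4.17 CPM, against 11.5 ± 0.599 CPM with DMSO (1.26, SE 0.20, adjusted p = 0.000166), PARP14 rose by 1.28 (SE 0.28, adjusted p = 0.00212) and PLSCR1 by 0.64 (adjusted p = 0.00176). HELZ2, a helicase, fell by 0.84 (adjusted p = 9.09e-05), and by 0.23 (adjusted p = 0.0529) with GC offsets and the replicate block. With GC offsets 5 rose and 6 fell, where 3426 and 2642 of all 17290 genes did, and the value of PLSCR1 was 0.08 (adjusted p = 0.655). The list has 46 genes with the antiviral members, 39 of them in the promoter table, of which 29 (74.4%) held ISRE letters. Of the 23 tested genes with these letters 8 rose and 6 fell, at a median of 0.10, and of the 8 without them 1 rose and 2 fell, at a median of -0.10. IFIT3, a description only, is among the 8 that rose, and IFIT1 and ISG15 are among the 6 that fell. OAS1, whose GAAA repeats stand 1 base apart, is among the genes without the letters. Over all tested genes 21.3% rose and 19.7% fell, and nothing is read from these counts.

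The list of interferon gamma targets and antigen presentation genes had 20 tested genes, of which 7 rose and 2 fell with both compounds, at a median of 0.10. Of all tested genes, 21.3% rose and 19.7% fell. CD274, which encodes PD-L1, rose to 7.77 ± 4.30 CPM, against 1.51 ± 0.376 CPM with DMSO (2.35, SE 0.34, adjusted p = 7.71e-05). GBP3, a guanylate-binding protein, rose by 2.02 (SE 0.43, adjusted p = 0.00157) and WARS1, the tryptophanyl-tRNA synthetase, by 1.28 (SE 0.16, adjusted p = 1.97e-05). TAPBP, which loads peptides on MHC class I, fell by 0.69 (adjusted p = 0.000229), with values of -0.75 to -0.33 over the settings run, all past the test. With GC offsets 10 rose and 1 fell in this list, where 3426 and 2642 of all 17290 genes did. For TH10785 and for PNKP1i against DMSO, 0 genes passed edgeR's test in each of these 6 lists. Unadjusted p-values under 0.05 were found for 2445 (14.1%) of all 17290 genes with TH10785 and for 1957 (11.3%) with PNKP1i. With PNKP1i these included 3 of 12 DNA sensing, 1 of 12 RNA sensing and 1 of 6 receptor genes. They also included 2 of 19 JAK-STAT, 5 of 30 type I and 7 of 20 interferon gamma genes. In the same order TH10785 had 1, 1, 0, 4, 2 and 2. The median of the interferon gamma list with PNKP1i was 0.20, against -0.02 over all genes, and 15 of its 20 genes were above 0. Other settings called some of the 99 tested list genes: 1 or 2 in 5 of 23 settings with TH10785, and 1 to 11 in 8 of 23 with PNKP1i. The 11 came from a fit of only the groups compared, which called 1150 genes in all, and WARS1, DNASE2, IRF3 and PIAS1 were among them. With DESeq2, 1 gene of the JAK-STAT list passed with TH10785, and 1 each of the DNA sensing, JAK-STAT and interferon gamma lists with PNKP1i.

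**Figure D4:**
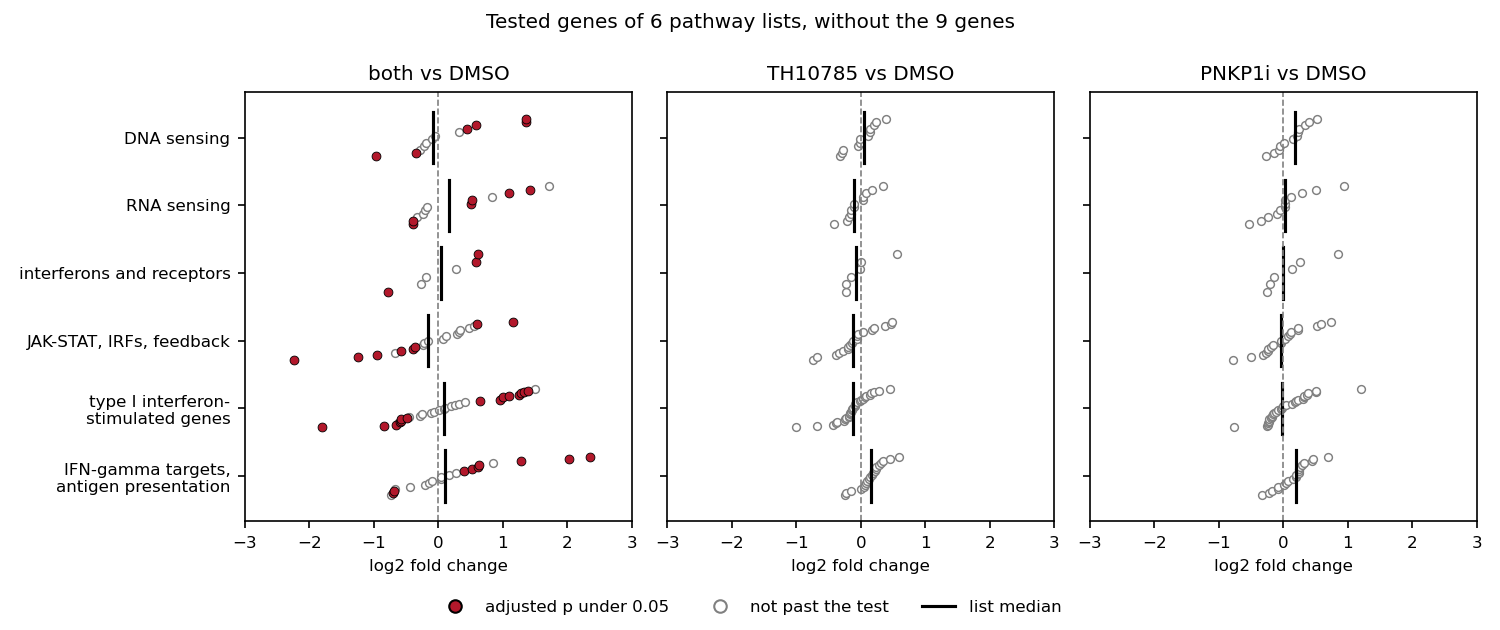
Log2 fold change against DMSO (horizontal axes) of the tested genes of 6 lists, without the 9 genes, for both compounds, TH10785 and PNKP1i. Each point is a gene, filled where the adjusted p was under 0.05, and the vertical bars are list medians; with both compounds filled points lie on both sides of 0, as the 8 that rose and 7 that fell among type I interferon-stimulated genes, and in the fit shown there are 0 with either compound alone, where other settings call up to 2 with TH10785 and up to 11 with PNKP1i.

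The genes whose pattern over the 12 libraries was most like each of the called genes were taken by Pearson's r of log2 CPM, as a description. All share the same libraries and the same 4 groups. For ISG15 these were TBCB (0.985), RCC1 (0.983) and EIF4E2 (0.982). For IFIT1 they were PCDH18 (0.972), HAPLN1 (0.971) and BPHL (0.961). For IFIT3 they were SIRT5 (0.941), LINC02331 (0.922) and GPRASP2 (0.918), and for STING1 TTC39A (0.891), XYLB (0.889) and ARL2BP (0.887). For OAS1 they were SRR (0.874), APOA1 (0.869) and ENSG00000261800 (0.862). Among the tested genes themselves r ran from -0.75 between STING1 and MX1 to 0.73 between ISG15 and OAS1, with 0.65 between ISG15 and IFIT1 and -0.15 between IFIT1 and IFIT3.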

How the data were processed

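Total RNA of 12 U2OS samples was extracted with TRIzol, made into libraries with a NEBNext Ultra RNA kit and read as 150 bp pairs on a NovaSeq, per the labels' protocols. The deposited raw counts per gene were tested here; per the submitters' processing notes, HISAT2 2.0.5, HTSeq 0.6.1 and DESeq2 1.30.1 were used, and the annotation and use of strand are not given in the sources used here. The deposited normalized signal equals the authors' raw count over 1 constant per library (largest relative deviation 4.28e-07). The labels do not say that replicates were separate cultures, so the spread behind each p-value may be technical only. No replicate pair agreed within sampling noise (chi-square per gene 3.12 to 39.4).

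Counts were tested with edgeR 4.0.16 (R 4.3.3): filterByExpr (minimum count 10, total 15; 17290 genes), TMM, 1 mean per group over 12 libraries, robust quasi-likelihood F tests, two-sided, with Benjamini-Hochberg adjustment over all tested genes and calls at 0.05. The coefficient of biological variation was 15.4%. CPM used TMM-scaled totals. Positions, exon lengths, GC content and overlaps came from GENCODE (GRCh38). Count ratios have exact conditional binomial intervals. The members and lists were chosen with earlier results of these data known. From each list up to 4 called genes with the smallest p were named; DNASE2, IRF3, PIAS1, TREX1, STAT2, IRF9 and IFNAR2 were chosen after their values were seen. The 23 other settings were scaling by RLE or by the upper quartile, no filter and a stricter one, DESeq2 1.42.0, limma 3.58.1 (voom, and trend, on log2 of the authors' normalized signal plus 1), offsets from splines of GC content and length, a replicate block, only the groups compared, and each library left out.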

Additional observations from a re-analysis of the deposited data

Results flagged for a closer look

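The change with both compounds differed from the sum of the changes with TH10785 and PNKP1i for ISG15, by -1.12 on the log2 scale (SE 0.31, adjusted p = 0.0152, edgeR), and for OAS1, by -1.86 (SE 0.68, adjusted p = 0.0464). Each was marked because the difference itself passed its test. For OAS1 this is a description only, since the gene passed the filter on low counts through its TH10785 libraries. For ISG15 the mean levels were 12.7 CPM with both compounds, 25.8 with TH10785, 23.3 with PNKP1i and 21.8 with DMSO, and all 3 combination libraries lay below the 6 libraries of the single compounds. For OAS1 they were 0.333 CPM with both compounds, 0.887 with TH10785, 0.831 with PNKP1i and 0.60 with DMSO, on 21, 48, 46 and 31 counts. With offsets for GC content neither passed (adjusted p = 0.0935 for ISG15 and 0.087 for OAS1). What moved these genes was not tested.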

How the results depend on the processing

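No call of the 9 genes changed direction in any setting in which it passed. For TH10785 against DMSO, 97 genes became 513 with no filter, 287 with GC offsets, 62 with the replicate block, 158 with the block and the offsets, 338 with DESeq2, and 44 to 178 with a library left out (44 without DMSO replicate 2, 47 without DMSO replicate 3, 53 without TH10785 replicate 2, 178 without combination replicate 1). For PNKP1i, 34 became 189, 104, 15, 61 and 115 in the same order, 1150 with only the groups compared, and 7 to 301 with a library left out (omitting DMSO replicate 1, 2 or 3 gave 22, 13 or 8, PNKP1i replicate 1 or 3 gave 7 or 9, TH10785 replicate 2 or 3 gave 22 or 301, and combination replicate 1 gave 67). For both against PNKP1i, 7945 became 5277 with GC offsets and the replicate block. For the interaction, 5289 became 3136 with GC offsets, 2410 with these and the replicate block, and 3492 to 6140 with a library left out (3492 and 3519 without PNKP1i replicates 3 and 1, 3501 without DMSO replicate 3). The causes were not tested.

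Signs turned only for values that did not pass the test. With GC offsets, and then with the replicate block as well, CGAS was -0.060 and -0.059 with both against DMSO, -0.040 and -0.041 against PNKP1i, and -0.27 and -0.27 in the interaction. In the same pair of settings STING1 with TH10785 was -0.045 and -0.039, IFIT1 with PNKP1i 0.079 and 0.063, ISG15 with PNKP1i -0.014 and -0.0062, and IRF1 0.22 and 0.22 with both against DMSO and 0.10 and 0.10 in the interaction. The interaction of CGAS was -0.017 with RLE scaling, -0.012 with no filter, -0.022 with DESeq2 and -0.018 with limma-trend. IFIT1 with PNKP1i was 0.014 with limma-voom and 0.015 with limma-trend.

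With a library left out, CGAS ran from -0.13 to 0.048 with both against TH10785 and from -0.088 to 0.11 in the interaction. STING1 with TH10785 ran from -0.19 to 0.18, IFIT3 from -0.39 to 1.11 and MX1 from -0.26 to 0.044. With PNKP1i, IFIT1 ran from -0.21 to 0.35, ISG15 from -0.064 to 0.22 and OAS1 from -0.20 to 0.76. IRF1 ran from -0.14 to 0.052 with both against DMSO and from -0.20 to 0.017 in the interaction, and IFIT3 from -0.27 to 1.22 in the interaction. The numbers of the labels did not pair the libraries: same-numbered libraries of different groups deviated together with r of -0.255 to 0.125, 1 of 18 pairs was over 0.1 and 1 of 12 libraries correlated best with its own number. The replicate block moved the called genes for TH10785 from 97 to 62 and for PNKP1i from 34 to 15. Depth limits IFIT2, IFIT3 and OAS1, where 1 count was 0.0452 to 0.0613 CPM.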
